A study of Oryza sativa Japonica Group with 8 samples.

Results

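The cold response of rice seedlings carrying the RD29A:DREB1a transgene was measured by RNA-seq as the difference between cold-shocked transgenic seedlings (T_CS) and transgenic seedlings kept at room temperature (T_RT). These groups held 4 of the 8 libraries of the series, 2 per group, and the comparison took in every gene ID of the deposited tables. Of 38978 gene IDs, 28218 passed the filter on low counts and were tested.

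All seedlings were Oryza sativa cv. Taipei 309, 10 days old, grown on MS medium, and their aerial parts were harvested. Cold shock consisted of 20 h on ice, and the light during that time was not stated. The T seedlings carried the Arabidopsis transcription factor gene DREB1a under the stress-inducible Arabidopsis promoter RD29a, together with the marker genes NPTII, GUS, GFP and pporRFP, which T_RT and T_CS shared. The non-transgenic seedlings (N_RT and N_CS) received the same treatments and are called wild type in the labels, whereas the methods use the parental Cre-lox founder line T5. Each group was 1 pool of RNA from 6 seedlings, from which 2 technical libraries were made, so the tests compare pools and the spread between libraries holds no variation between plants. The T pools came from homozygous lines 11, 20 and 29 according to the labels, and the methods list lines 11 and 29. According to the labels, seedlings were screened for induction of the transgene in the cold before lines were pooled, and the level of the Arabidopsis transgene itself was not analysed here. Markers of leaf tissue were not analysed here either, since the IDs come without gene names.

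DREB1 proteins, also called CBF proteins, are transcription factors of the AP2/ERF family that are induced by cold and bind the DRE/CRT element in the promoters of cold-inducible genes. In Arabidopsis their targets include dehydrins, other late embryogenesis abundant (LEA) proteins and enzymes that make compatible solutes, and constitutive expression of DREB1a raises freezing tolerance but slows growth. The RD29a promoter holds DRE elements of its own and is nearly silent until the plant meets cold, drought or salt.

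The 4 T libraries held 21766424 and 24370433 counts in T_RT and 21123630 and 18963211 counts in T_CS, and all 8 libraries ranged from 18963211 to 24405824. Levels are given as CPM, the counts of a gene relative to the total of its library, scaled by the trimmed mean of M-values (TMM). They are not divided by gene length, so they are compared between libraries but not between genes. Libraries of the same pool correlated at 0.993 to 0.995 on the log2 CPM scale and differed by more than sampling noise, with a chi-square per degree of freedom of 1.71 in T_RT and 2.39 in T_CS. A gene is said to have risen or fallen when the false discovery rate (FDR) of edgeR's quasi-likelihood test with Benjamini-Hochberg adjustment was at most 0.01, and it is said to be called higher when its log2 fold change was also at least 2, or called lower when it was also at most -1.

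With TMM scaling, cold shock raised and lowered equal numbers of genes in T, and the falls that passed the test had the larger median size. In T_CS versus T_RT, 7390 genes rose (26.2% of those tested), 7390 fell (26.2%) and 13438 did not pass the test. The median absolute log2 fold change was 0.57 for the genes that rose and 0.87 for the genes that fell, and the median over all tested genes was -0.01. The first 2 medians cover genes that passed the test, which takes a larger change where the standard error is larger. Falls outnumbered rises below 10 CPM, where standard errors were larger, so these 2 medians do not compare sizes at equal precision. The unequal thresholds of the calls leave 519 genes called higher (1.84% of those tested) and 3093 called lower (11.0%). At the same size of change, a log2 fold change of at least 1 in either direction, 1734 genes rose and 3093 fell. At a size of at least 3, the numbers were 192 and 206. At a size of at least 5 the order turned, with 42 genes that rose and 25 that fell. Sizes of genes with 0 counts in 1 of the groups, 21 that rose and 15 that fell, depend on a small count that the fit adds. The balance rests on the scaling and the method. With scaling to total counts alone, 5796 genes rose and 8910 fell, so that 39.4% of the changed genes rose, and the median over all genes moved to -0.13. Rises were ahead with relative log expression (RLE) size factors, where 7743 genes rose and 7087 fell. The same held with another program, DESeq2, where 6545 rose and 5759 fell. In these bulk samples, fewer cells of a type and less RNA per cell cannot be told apart.

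**Figure D1:**
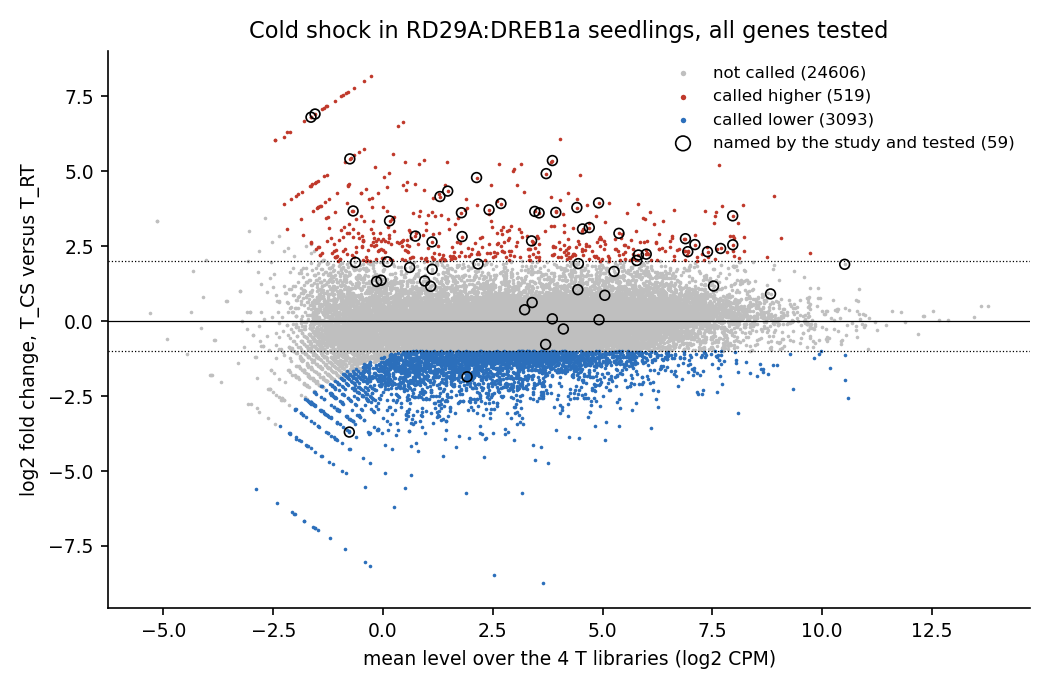
Log2 fold change in T_CS versus T_RT (y axis) against the mean level over the 4 T libraries in log2 CPM (x axis) for every tested gene, with the 519 genes called higher in red, the 3093 called lower in blue, and the 59 tested genes that the study names circled. Dotted lines mark the log2 fold changes of 2 and -1 used for the calls, and most circled genes lie above 0.

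The genes called higher took a small part of the reads at room temperature and a several times larger part after the cold. They held 0.453% and 0.452% of the counts in the T_RT libraries and 2.55% and 2.64% in the T_CS libraries. The genes called lower went from 7.96% in both T_RT libraries to 2.63% and 2.58% in T_CS. Genes that rose at any size held 42.7% of the counts in both T_RT libraries and 58.5% and 58.8% in T_CS. These shares were computed on the genes chosen by the same contrast and describe it, with no test.

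How often a gene passed the test depended on its level and, with it, on the precision of its fold change. Among 3400 genes averaging under 1 CPM over the 8 libraries, 7.03% rose and 11.3% fell, at a median standard error (SE) of 0.58 on the log2 scale. Among 10505 genes at 1 to 10 CPM, 13.2% rose and 27.7% fell, and among 12515 genes at 10 to 100 CPM, 37.8% rose and 28.6% fell. The 1798 genes at 100 CPM or more were measured at a median SE of 0.039, and 57.1% of them rose while 28.9% fell. Falls were thus more frequent than rises below 10 CPM and less frequent above it, except that with total count scaling 29.1% rose and 35.0% fell at 10 to 100 CPM. At 100 CPM or more, rises stayed ahead under that scaling, at 46.6% against 35.9%.

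**Figure D2:**
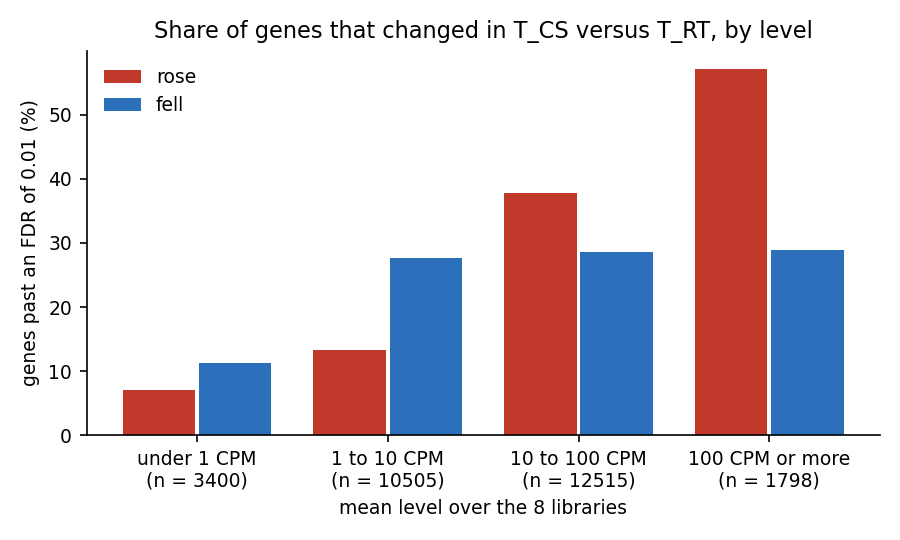
Bars give the percentage of tested genes that rose (red) or fell (blue) in T_CS versus T_RT at an FDR of at most 0.01, by mean level over the 8 libraries (x axis, with the number of genes tested). The share that rose went from 7.03% under 1 CPM to 57.1% at 100 CPM or more, and the share that fell lay between 27.7% and 28.9% from 1 CPM upward. With total count scaling, falls exceeded rises at 10 to 100 CPM as well.

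A small number of genes went from no count to a measured level or the reverse. There were 21 genes with 0 counts in both T_RT libraries that rose, and their mean level in T_CS ran from 0.366 to 1.65 CPM. Against a floor of 3 counts over the group, they were at least 5.82-fold to at least 26.2-fold higher in T_CS. Of the 21, 13 also rose in N, where 19.7% of all tested genes rose. In the other direction, 15 genes had 0 counts in both T_CS libraries and fell. Of the 15, 1 also fell in N, where 21.1% of all tested genes fell. Some of the 15 had at most 1 count over all N libraries and could hardly fall there. The 26.2-fold bound belongs to Os02g0815100, with 0 and 0 counts in T_RT and 42 and 21 counts in T_CS. It had 1 and 0 counts in N_RT, so it passed the filter through the cold libraries alone and could hardly fall in N. The numbers of these genes that moved the same way in N thus depend partly on the filter.

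The files pair most IDs with no name, so the IDs at the extremes are given without a role. Os12g0274700 gained the most CPM among the genes that rose, from 11627 and 11633 CPM in T_RT to 16629 and 16152 CPM in T_CS, which gave a log2 fold change of 0.50 ± 0.016. An adjacent ID of this gene had near-equal counts, so reads may have been split between the pair. Os07g0115200 fell the most, from 25.8 and 24.01 CPM in T_RT to 0.0507 and 0.0562 CPM in T_CS, and its summed counts were 467-fold (95% counting interval 129 to 3857) lower after the cold. In N the same ID had 1 and 0 counts in N_RT and 2 and 0 counts in N_CS, so it was near 0 in every library but the T_RT pair. Os09g0346500 lost the most CPM, with 2650.3 and 2634 CPM in T_RT and 452 and 446 CPM in T_CS (log2 fold change -2.56 ± 0.024, FDR 3.78e-69), and it fell by far less in N (log2 fold change -0.07, FDR 0.00975).

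The study names 65 genes with IDs and describes their functions. Of these, 59 were tested, 51 rose, 3 fell and 5 did not pass, with 35 called higher and 2 called lower. Of all tested genes, 26.2% rose, 26.2% fell, 1.84% were called higher and 11.0% called lower. The median log2 fold change of the 59 was 2.42, against -0.01 over all tested genes. Both T_CS libraries lay above both T_RT libraries for 54 of the 59, where 38.6% of all tested genes did so. They lay below them for 3, where 40.1% of all did. The study chose most of its named genes for a difference between T_CS and N_CS, a comparison that uses the same T_CS libraries. Their direction in T_CS versus T_RT is therefore not independent evidence. Genes that bear the same name in the study are told apart here by the letters a and b.

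**Figure D3:**
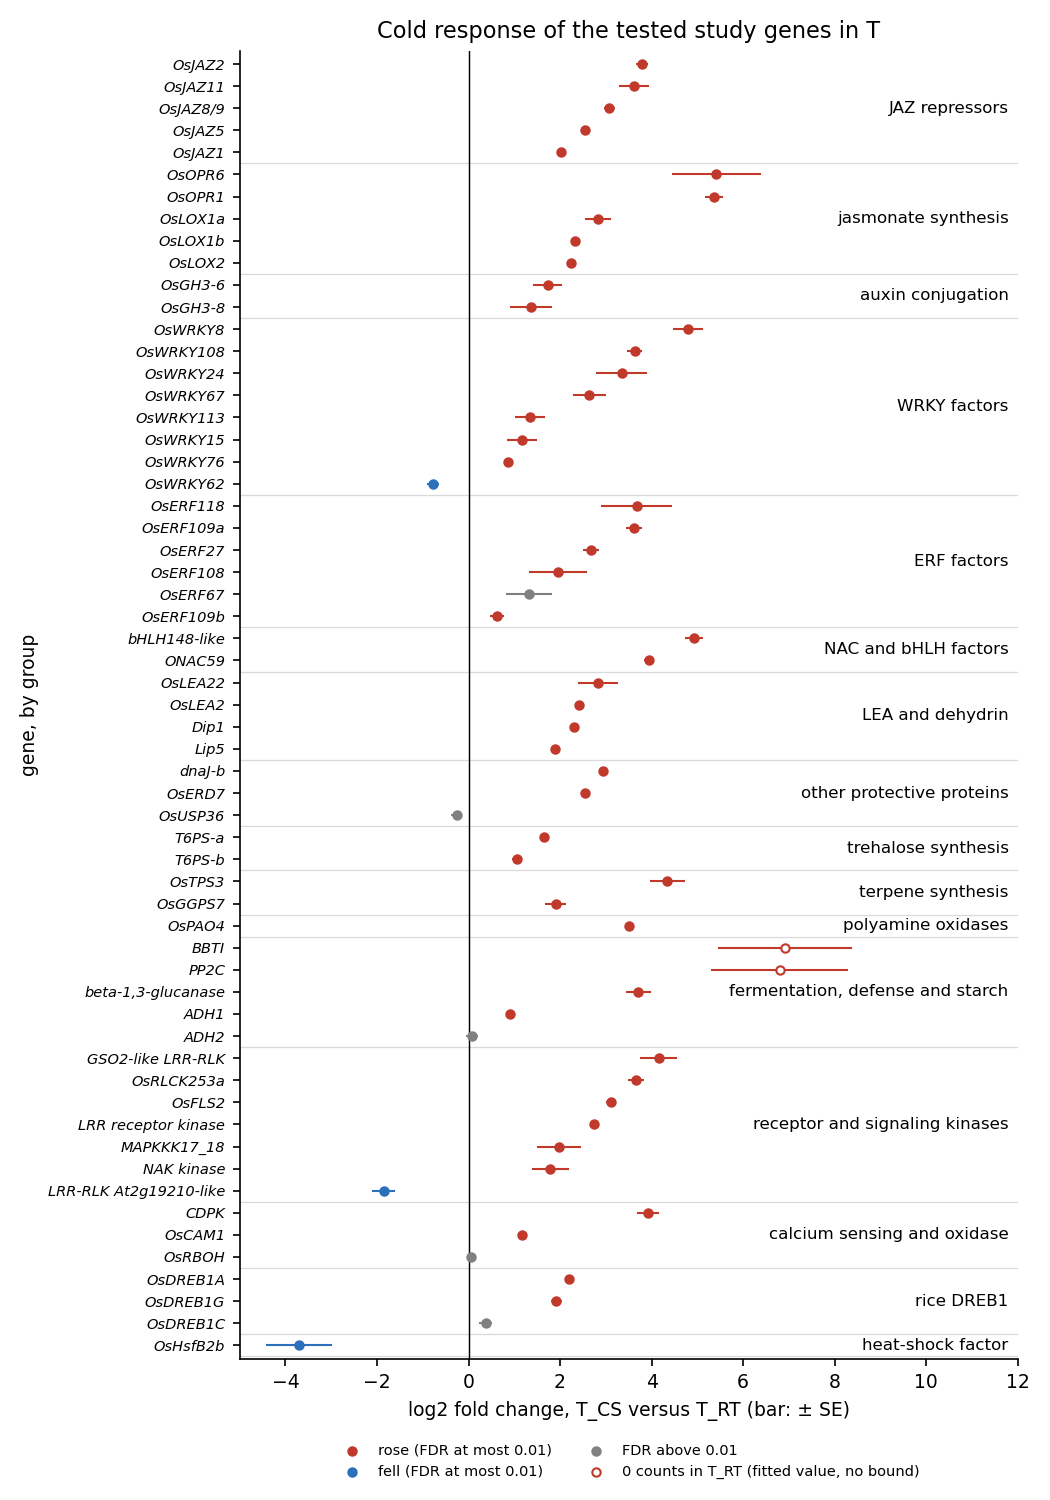
Points give the log2 fold change in T_CS versus T_RT of the 59 tested genes that the study names, in groups by function, with bars for ± SE. The 51 genes in red rose, the 3 in blue fell, and the 5 in grey did not pass an FDR of 0.01, while open circles are fitted values of genes with 0 counts in T_RT and are not bounds.

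The rice DREB1 genes encode the same kind of cold-induced activator as the transgene. Of the 3 tested, 2 rose in T, where 26.2% of all tested genes rose. OsDREB1A (Os09g0522200) had 19.2 and 20.9 CPM in T_RT and 95.5 and 89.7 CPM in T_CS. The T_CS libraries lay far above T_RT, and the log2 fold change was 2.21 ± 0.062 (FDR 7.64e-42). OsDREB1G (Os02g0677300) had 9.52 and 8.75 CPM in T_RT and 33.2 and 35.8 CPM in T_CS, so the log2 fold change was 1.92 ± 0.11 (FDR 3.87e-24). OsDREB1C (Os06g0127100) had 7.80 and 8.46 CPM in T_RT and 11.3 and 9.84 CPM in T_CS, and its log2 fold change of 0.38 ± 0.14 did not pass the threshold (FDR 0.0160), although the pairs of libraries did not overlap. All 3 rose in N, as did 19.7% of all tested genes, and the log2 fold changes were 0.68 for OsDREB1A, 2.83 for OsDREB1G and 3.95 for OsDREB1C. The response was larger in T for OsDREB1A (difference 1.53, FDR 6.28e-26) and smaller in T for OsDREB1G (difference -0.91, FDR 0.00185) and for OsDREB1C (difference -3.57, FDR 2.97e-17). The levels in N, not tested against T here, were as follows. OsDREB1A had 63.7 and 59.3 CPM in N_RT and 95.4 and 102 CPM in N_CS, so N was above T before the cold and close to T after it. OsDREB1G had 1.04 and 1.51 CPM in N_RT and 7.39 and 10.5 CPM in N_CS, which is below T in either treatment. OsDREB1C had 0.577 and 0.486 CPM in N_RT and 8.18 and 8.62 CPM in N_CS, under 1 CPM before the cold and close to the T_RT level after it.

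WRKY proteins are plant transcription factors that bind the W box and are best known from defense. Of 8 named WRKY genes, 7 rose and 1 fell, where 26.2% of all tested genes rose and 26.2% fell. Of the 8, 4 were called higher (1.84% of all tested genes were), and the median log2 fold change was 1.99. OsWRKY8 (Os05g0583000) had 0.408 and 0.202 CPM in T_RT and 8.46 and 8.44 CPM in T_CS, a 27.7-fold rise (FDR 3.8e-21). OsWRKY108 (Os01g0821300) had 2.31 and 2.27 CPM in T_RT and 30.5 and 26.1 CPM in T_CS, a 12.4-fold rise (FDR 2.08e-31). Both were low at room temperature and clearly separated in the cold. OsWRKY67 and OsWRKY24 also rose, with log2 fold changes of 2.64 ± 0.36 and 3.35 ± 0.56, and OsWRKY113 rose by less (1.34 ± 0.32, FDR 2.46e-04). OsWRKY76 and OsWRKY62, which act as repressors of rice defense genes, moved in opposite directions. OsWRKY76 (Os09g0417600) had 23.2 and 23.8 CPM in T_RT and 40.3 and 45.3 CPM in T_CS and rose (0.86 ± 0.086), whereas OsWRKY62 (Os09g0417800) had 15.6 and 17.3 CPM in T_RT and 9.43 and 9.78 CPM in T_CS and fell (-0.78 ± 0.13, FDR 2.37e-07). OsWRKY15 rose at 1.16 ± 0.32 (FDR 0.00143), but it did not pass with DESeq2 or without T_RT replicate 2. Its log2 fold change ranged from 1.01 to 1.31 across the alternatives.

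Ethylene response factors (ERF) belong to the same AP2/ERF family as DREB1 and include regulators of the responses to ethylene, flooding and wounding. Of 6 named ERF genes, 5 rose (26.2% of all tested genes did) and 3 were called higher (1.84% of all were). The median log2 fold change of the 6 was 2.32. OsERF109a (Os02g0764700) had 1.77 and 1.78 CPM in T_RT and 22.4 and 21.1 CPM in T_CS, a 12.2-fold rise (FDR 6.59e-29), and OsERF27 (Os02g0676800) had 3.58 and 2.11 CPM in T_RT and 17.9 and 18.1 CPM in T_CS, a 6.40-fold rise (FDR 3.05e-21). The other ERF genes moved less or rested on few counts. OsERF109b had 8.43 and 8.14 CPM in T_RT and 11.3 and 14.3 CPM in T_CS (0.62 ± 0.14, FDR 1.59e-04). It did not pass without T_CS replicate 2, and its log2 fold change ranged from 0.44 to 0.79 over the alternatives. OsERF118 had 4 and 0 counts in T_RT and 29 and 15 counts in T_CS, so its log2 fold change of 3.68 ± 0.77 rests on few counts. It did not pass with DESeq2 (FDR 0.527), and its log2 fold change ranged from 2.64 to 7.655 over the alternatives. OsERF108 had 9 and 3 counts in T_RT and 14 and 24 counts in T_CS (1.96 ± 0.63, FDR 0.00568). It did not pass in 4 alternatives, among them those without T_RT replicate 2 and without T_CS replicate 2. Its log2 fold change ranged from 1.31 to 3.01 over the alternatives. OsERF67 had 0.408 and 0.607 CPM in T_RT and 0.912 and 1.69 CPM in T_CS and did not pass (1.32 ± 0.51, FDR 0.0209), though it passed with the likelihood ratio test and with the 4 T libraries alone (FDR from 0.00531 to 0.328 over all alternatives).

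The largest steps among the named transcription factors that had more than 3 counts in T_RT were in ONAC59, bHLH148-like and OsWRKY8. ONAC59 (Os01g0862800), of the NAC family of stress and senescence regulators, had 3.44 and 3.85 CPM in T_RT and 54.5 and 58.4 CPM in T_CS, a 15.4-fold rise (FDR 5.76e-41). The gene called bHLH148-like (Os01g0773800), a basic helix-loop-helix factor, had 0.770 and 0.891 CPM in T_RT and 24.6 and 26.3 CPM in T_CS, a 30.3-fold rise (FDR 1.64e-33). In both cases the libraries of a pool were close to each other and far from those of the other pool. OsHsfB2b (Os08g0546800) went the other way. This class B heat-shock factor, of a class that mostly lacks an activation domain, had 19 and 33 counts in T_RT and 3 and 0 counts in T_CS, 13.9-fold (95% counting interval 4.50 to 69.6) lower after the cold, and it passed the test (FDR 7.34e-06). In N it rose, with 13 and 2 counts in N_RT and 56 and 49 counts in N_CS (log2 fold change 2.95, FDR 8.37e-08).

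**Figure D4:**
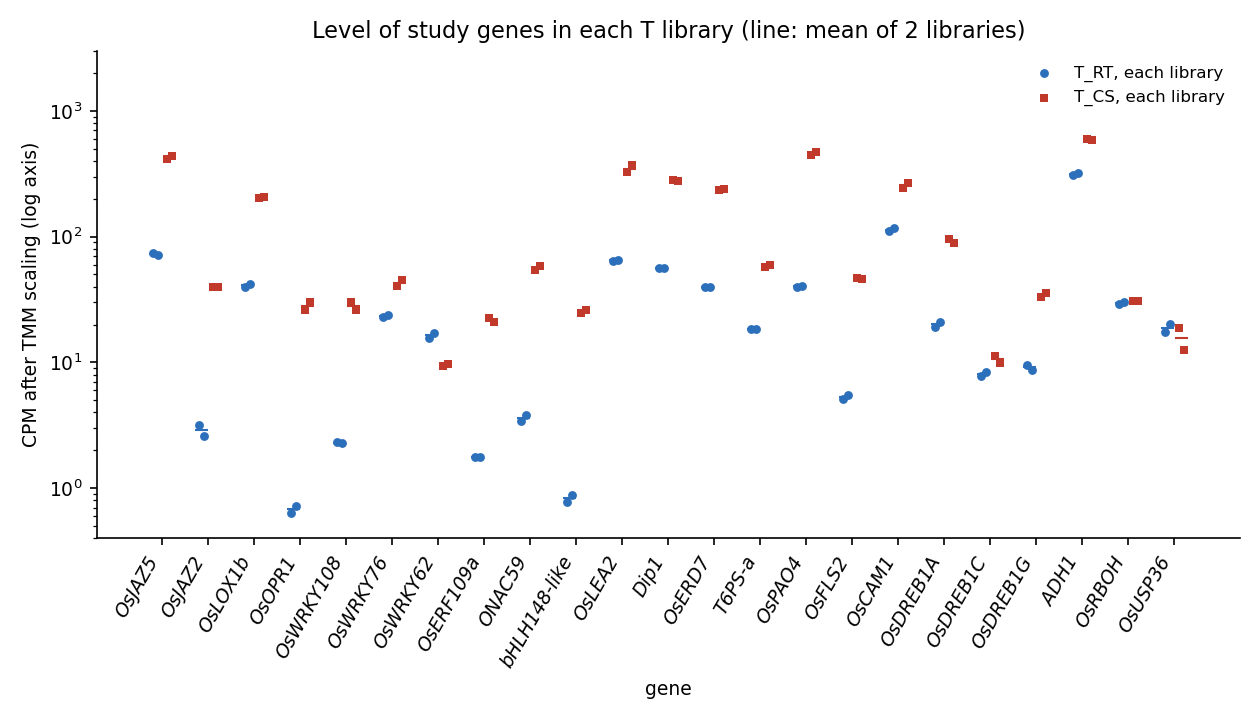
CPM on a log axis (y) of 23 genes that the study names (x) in each T_RT library (blue circles) and each T_CS library (red squares), with lines for the mean of 2 libraries. For most genes the 2 libraries of a pool nearly coincide and T_CS lies above T_RT, OsWRKY62 lies below, and the libraries of OsUSP36 overlap.

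The named genes of jasmonate signaling, of putative jasmonate synthesis and of auxin conjugation all rose in T. JAZ proteins repress jasmonate-responsive transcription and are destroyed when the hormone is present, while their genes are themselves induced by it. All 5 named JAZ genes rose and were called higher, where 26.2% of all tested genes rose and 1.84% were called higher. The median log2 fold change of the 5 was 3.07. OsJAZ5 (Os03g0402800) had 74.4 and 71.6 CPM in T_RT and 416 and 438 CPM in T_CS, a 5.85-fold rise (FDR 1.3e-56). OsJAZ1 (Os10g0392400) had 21.6 and 21.7 CPM in T_RT and 89.7 and 86.5 CPM in T_CS, a 4.07-fold rise (FDR 1.03e-37). Its log2 fold change ranged from 1.91 to 2.05 over the alternatives, so its call as higher depended on the processing. OsJAZ2 (Os03g0180900) had 3.17 and 2.59 CPM in T_RT and 39.8 and 39.7 CPM in T_CS, a 13.8-fold rise (FDR 5.17e-37). Both T_CS libraries lay above both T_RT libraries for each of them, as for 38.6% of all tested genes. OsJAZ8/9 and OsJAZ11 rose as well, with log2 fold changes of 3.07 ± 0.12 and 3.62 ± 0.33. In N none of the 5 rose and 3 fell, where 19.7% of all tested genes rose and 21.1% fell. The difference between the genotypes passed for all 5, each more positive in T, as for 17.0% of all tested genes.

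Lipoxygenases oxygenate polyunsaturated fatty acids, the first step towards jasmonate, and 12-oxophytodienoate reductases form a family with a later step of the same route. The study calls the role of its genes of these families in jasmonate synthesis putative. All 5 named genes of these families rose and were called higher, where 26.2% of all tested genes rose and 1.84% were called higher. The median log2 fold change of the 5 was 2.82. OsLOX1b (Os03g0700700) had 39.7 and 42.3 CPM in T_RT and 203 and 207 CPM in T_CS, a 4.99-fold rise (FDR 2.29e-49). OsLOX2 (Os08g0508800) had 22.8 and 21.9 CPM in T_RT and 101 and 109.7 CPM in T_CS, a 4.71-fold rise (FDR 5.99e-40), and OsLOX1a rose at 2.82 ± 0.28. OsLOX2 is the member of the group that also rose in N, by less (0.86). OsOPR1 (Os06g0216300) had 0.635 and 0.729 CPM in T_RT and 26.3 and 30.3 CPM in T_CS, a 41.0-fold rise (FDR 4.15e-35), but an adjacent ID had near-equal counts and the value may be shared between them. OsOPR6 had 1 and 0 counts in T_RT and 17 and 26 counts in T_CS, 53.6-fold (95% counting interval 9.12 to 2166) higher in the cold. GH3 enzymes conjugate the auxin IAA to amino acids, and both named members rose, where 26.2% of all tested genes rose. OsGH3-6 had 0.997 and 1.01 CPM in T_RT and 3.75 and 2.92 CPM in T_CS (1.73 ± 0.32, FDR 3.92e-06). OsGH3-8 had 0.680 and 0.405 CPM in T_RT and 1.17 and 1.63 CPM in T_CS (1.36 ± 0.46, FDR 0.00880). It did not pass in 7 alternatives, among them each of those without T_RT replicate 1, T_RT replicate 2, T_CS replicate 1 and T_CS replicate 2. Its log2 fold change ranged from 1.03 to 1.77 over the alternatives.

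Kinases and calcium sensors, which relay signals to such transcription factors, mostly rose. Of 7 named receptor and signaling kinases, 6 rose and 1 fell, where 26.2% of all tested genes rose and 26.2% fell. The median log2 fold change of the 7 was 2.75. OsFLS2 (Os04g0618700), the rice relative of the Arabidopsis flagellin receptor, had 5.12 and 5.55 CPM in T_RT and 46.9 and 46.2 CPM in T_CS, an 8.70-fold rise (FDR 7.35e-36). An LRR receptor kinase (Os05g0486100) had 30.0 and 31.2 CPM in T_RT and 203 and 209 CPM in T_CS, a 6.73-fold rise (FDR 1.19e-52). OsRLCK253a, a receptor-like kinase, had 1.59 and 1.62 CPM in T_RT and 20.2 and 20.5 CPM in T_CS, a 12.6-fold rise (FDR 1.45e-28). In these 3 genes the libraries hardly varied within a pool. The GSO2-like LRR-RLK also rose (4.16 ± 0.40). The NAK kinase and MAPKKK17_18 rose at 1.79 ± 0.41 and 1.98 ± 0.48, but the former did not pass without T_CS replicate 1 (FDR 0.0477, range 7.81e-06 to 0.0477) and the latter did not pass without T_RT replicate 2 (FDR 0.0215, range 7.64e-06 to 0.0215). The LRR-RLK At2g19210-like (Os05g0524500) had 5.57 and 6.24 CPM in T_RT and 1.47 and 1.80 CPM in T_CS and fell (-1.86 ± 0.26, FDR 4.01e-09). In N this gene had 1 and 0 counts in N_RT and 1 and 1 counts in N_CS.

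Calmodulin binds calcium and passes the signal to its partners, and OsCAM1 (Os03g0319300) had 110.0 and 117 CPM in T_RT and 245 and 266 CPM in T_CS, a 2.25-fold rise (FDR 2.66e-36). The calcium-dependent protein kinase CDPK (Os08g0540400) had 0.770 and 0.810 CPM in T_RT and 12.6 and 11.6 CPM in T_CS, a 15.2-fold rise (FDR 1.79e-22). OsRBOH, an NADPH oxidase that makes superoxide at the plasma membrane, had 29.2 and 30.3 CPM in T_RT and 30.5 and 31.0 CPM in T_CS and did not pass (0.05 ± 0.082, FDR 0.645), and its direction turned with total count scaling. An adjacent ID of OsRBOH had near-equal counts. PP2C, a protein phosphatase of a class that includes brakes on abscisic acid signaling, had 0 and 0 counts in T_RT and 12 and 12 counts in T_CS and was at least 9.97-fold higher in the cold.

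Transcripts of the named genes for proteins that protect cells from loss of water all rose in T. LEA proteins and dehydrins stay soluble as cells dry and are thought to shield membranes and enzymes. All 4 named genes rose (26.2% of all tested genes did), with a median log2 fold change of 2.37. Lip5 (Os03g0655400), a gene inducible by water stress, had 608 and 630.1 CPM in T_RT and 2306 and 2302 CPM in T_CS, a 3.72-fold rise (FDR 1.24e-60), and it had the third largest gain in CPM among the genes that rose. OsLEA2 (Os01g0314800) had 64.3 and 65.2 CPM in T_RT and 326 and 369 CPM in T_CS, a 5.37-fold rise (FDR 1.09e-52). The dehydrin Dip1 (Os02g0669100) had 56.3 and 55.9 CPM in T_RT and 282 and 276 CPM in T_CS, a 4.98-fold rise (FDR 2.42e-51). The libraries of each pool nearly coincided for these 3, and OsLEA22 rose from a level under 1 CPM (2.84 ± 0.44). In N, OsLEA2 and Dip1 did not pass the test, with log2 fold changes of -0.10 and -0.09, and Lip5 fell (-0.39).

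Genes for other protective proteins behaved unequally. OsERD7 (Os03g0241900), related to an Arabidopsis gene induced early in dehydration, had 40.02 and 40.01 CPM in T_RT and 233 and 237 CPM in T_CS, a 5.87-fold rise (FDR 1.72e-51). The chaperone gene dnaJ-b (Os08g0452900) had 10.2 and 9.07 CPM in T_RT and 74.9 and 71.5 CPM in T_CS, a 7.62-fold rise (FDR 7.98e-40). The second chaperone gene, dnaJ-a, was under the filter, with 1 and 1 counts in T_RT and 7 and 13 counts in T_CS, 12.5-fold (95% counting interval 3.03 to 110.0) higher in the cold. OsUSP36, a universal stress protein, had 17.3 and 20.3 CPM in T_RT and 18.8 and 12.5 CPM in T_CS with overlapping pairs and did not pass (-0.26 ± 0.12, FDR 0.0588), but it passed as a fall with total count scaling and without T_CS replicate 1 (FDR from 1.71e-04 to 0.987 over all alternatives).

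The tested genes of trehalose, polyamine and terpene metabolism all rose in T, where 26.2% of all tested genes rose. Trehalose-6-phosphate synthase makes the precursor of trehalose, a sugar linked to stress tolerance, and both named genes rose. T6PS-a (Os08g0445700) had 18.6 and 18.3 CPM in T_RT and 56.9 and 59.7 CPM in T_CS, a 3.16-fold rise (FDR 4.96e-29), and T6PS-b (Os08g0414700) had 14.1 and 14.1 CPM in T_RT and 27.8 and 30.6 CPM in T_CS, a 2.07-fold rise (FDR 7.98e-15). Both fell in N, at log2 fold changes of -1.68 and -1.50, where 21.1% of all tested genes fell. OsPAO4 (Os04g0671200), a polyamine oxidase, which breaks down spermine and spermidine with release of hydrogen peroxide, had 40.02 and 40.3 CPM in T_RT and 446 and 471 CPM in T_CS. That 11.4-fold rise had the smallest FDR of the named genes (7.14e-62). OsPAO6 was not tested, with 0 and 0 counts in T_RT and 3 and 2 counts in T_CS, at least 2.08-fold higher. Of the terpene genes, OsTPS3, a terpene synthase, had 0.227 and 0.283 CPM in T_RT and 5.42 and 5.17 CPM in T_CS, a 20.2-fold rise (FDR 5.21e-16). OsGGPS7, which makes the precursor of diterpenes, had 1.90 and 1.86 CPM in T_RT and 7.45 and 6.69 CPM in T_CS, a 3.75-fold rise (FDR 7.22e-11), and OsTPS23 was not tested, with 2 and 0 counts in T_RT and 13 and 4 counts in T_CS.

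Alcohol dehydrogenases regenerate NAD+ in fermentation, and the named pair differed. ADH1 (Os11g0210300) had 307 and 322 CPM in T_RT and 602 and 581 CPM in T_CS, a 1.88-fold rise (FDR 2e-36). ADH2 had 12.5 and 15.7 CPM in T_RT and 16.02 and 13.7 CPM in T_CS, overlapping pairs with a log2 fold change of 0.08 ± 0.12 (FDR 0.613) whose sign turned with total count scaling and without T_RT replicate 1 or T_CS replicate 1. A beta-1,3-glucanase, an enzyme that cuts fungal walls and callose, had 0.906 and 0.607 CPM in T_RT and 10.1 and 9.73 CPM in T_CS, a 13.1-fold rise (FDR 4.75e-20). BBTI, a Bowman-Birk trypsin inhibitor, had 0 and 0 counts in T_RT and 17 and 9 counts in T_CS, at least 10.8-fold higher. Counted together with PP2C, 4 of 5 tested genes (ADH1, ADH2, the glucanase, BBTI and PP2C) rose, where 26.2% of all tested genes rose. The median log2 fold change of the 5 was 3.71, or 3.32 with the genes at 0 set to their bounds. The lignin synthesis genes OsCCR and OsC4H and the alpha-amylase gene were under the filter, with overlapping libraries. They had 0 and 5 counts in T_RT and 13 and 3 counts in T_CS for OsCCR, 3 and 3 counts in T_RT and 14 and 1 counts in T_CS for OsC4H, and 0 and 0 counts in T_RT and 0 and 1 counts in T_CS for the alpha-amylase.

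The same cold shock was given to N, whose libraries are separate from those of T, so the responses could be set side by side. The median absolute log2 fold change over all tested genes was 0.45 in T and 0.33 in N. In N, 5558 genes rose (19.7%) and 5940 fell (21.1%), with 251 called higher (0.890%) and 1648 called lower (5.84%). The near balance in N also rests on the scaling, since 3685 genes rose and 7524 fell with total count scaling, and without N_RT replicate 1 the numbers were 3686 and 5175. Across the 28218 tested genes, the log2 fold changes of T and N correlated at Pearson's r = 0.40 and Spearman's rho = 0.38, and at 0.41 and 0.40 over the 24818 genes averaging at least 1 CPM. Genes are not independent replicates, and these values are a description. The difference between the cold responses passed the test for 9220 genes, of which 4810 (17.0%) were more positive in T and 4410 (15.6%) more positive in N. The latter number was 2845 with DESeq2, which left 4050 more positive in T.

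Of the 7390 genes that rose in T, 3103 (42.0%) rose in N, 979 (13.2%) fell in N and 3308 did not pass there. Of the 7390 that fell in T, 3528 (47.7%) fell in N, 705 (9.54%) rose and 3157 did not pass. The difference between the genotypes passed for all 979 and all 705 genes that moved in opposite directions. Since these genes were chosen for opposite signs past the FDR in T and N, that outcome was nearly fixed and adds no evidence. Of the 519 genes called higher in T, 102 were called higher in N as well, which is 19.7% of the T list and 40.6% of the N list, and the 519 genes had a median log2 fold change of 0.17 in N, with quartiles of -0.41 and 1.74. Of the 3093 called lower in T, 857 were called lower in N, 27.7% of the T list and 52.0% of the N list, and the 3093 genes had a median log2 fold change of -0.64 in N. The genes called higher in T held 0.455% and 0.453% of the counts in N_RT and 0.744% and 0.751% in N_CS.

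Of the 59 tested genes that the study names, 7 rose and 16 fell in N, where 19.7% of all tested genes rose and 21.1% fell. Their median log2 fold change in N was -0.47, against 0.01 over all tested genes. Where the difference between the responses passed, 42 were more positive in T (17.0% of all tested genes were) and 4 more positive in N (15.6% were). There were 13 genes that rose in T and fell in N, where 979 of the 28218 tested genes did so. The difference passed for all 13, an outcome nearly fixed by their choice for opposite signs. Of the jasmonate genes, OsJAZ1 had log2 fold changes of 2.02 in T and -1.85 in N, OsJAZ5 of 2.55 and -0.74, OsJAZ11 of 3.62 and -2.45, and OsLOX1a of 2.82 and -1.24. Of the transcription factors, ONAC59 had 3.95 in T and -1.79 in N, and OsWRKY8 had 4.79 in T and -2.34 in N, where it fell to 3 counts. The remaining genes were Lip5, OsLEA22, T6PS-a, T6PS-b, OsGGPS7, OsFLS2 and OsCAM1, whose log2 fold changes in N lay between -0.39 for Lip5 and -2.12 for OsGGPS7, apart from OsLEA22, which had 4 and 6 counts in N_RT and 0 and 0 counts in N_CS. The 5 genes that rose in both genotypes were OsDREB1A, OsDREB1G, OsLOX2, OsERF109a and OsERF109b. For OsERF109a, the log2 fold changes of 3.61 in T and 2.01 in N were not shown to differ (difference 1.601, FDR 0.0292). OsHsfB2b was the named gene that fell in T and rose in N. Since N_CS libraries took part in the choice of these genes by the study, these counts too are not independent evidence.

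**Figure D5:**
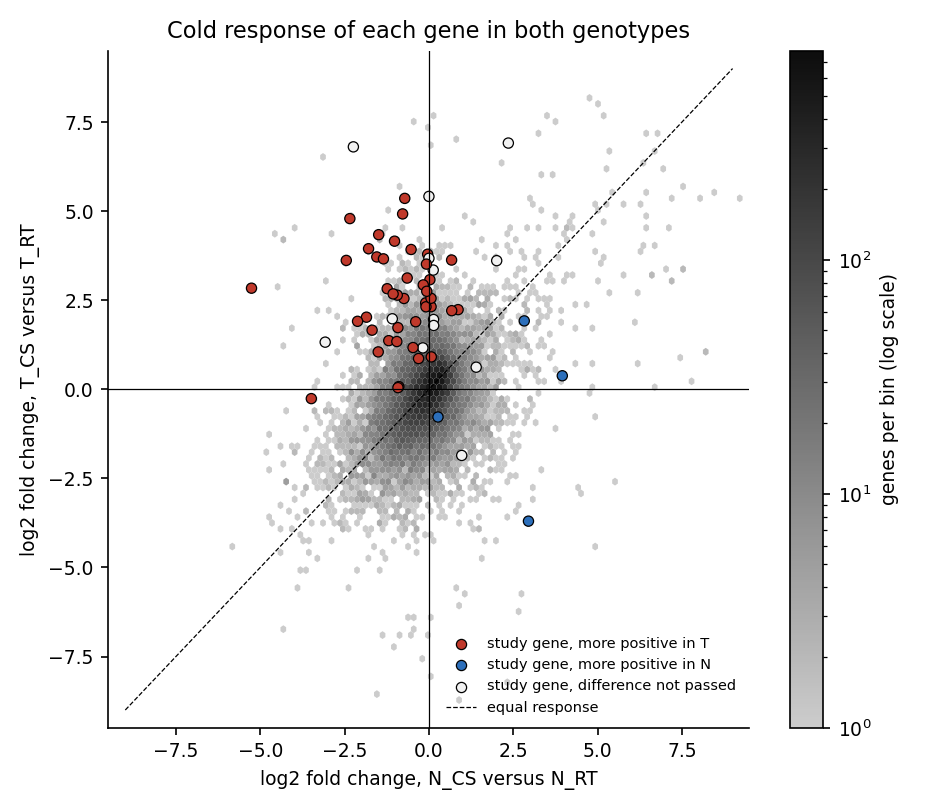
Log2 fold change in T_CS versus T_RT (y axis) against N_CS versus N_RT (x axis) for the 28218 tested genes, shaded by the number of genes per bin, with the 59 tested genes that the study names as circles. The 42 red circles responded more positively in T and the 4 blue ones more positively in N, white circles did not pass that test, and the dashed line marks equal responses.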

How the data were processed

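RNA-seq libraries were made from poly(A) RNA of the aerial parts with a directional kit. The authors trimmed reads with Trimmomatic, aligned them to IRGSP-1.0 with STAR and deposited counts per gene ID from featureCounts 1.6.4. The strand setting and the rules for multi-mapped and overlapping reads are not given in the sources used here. The methods speak of normalized counts, but the deposited counts are whole numbers with unequal totals and were used as raw counts.

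Genes were kept by filterByExpr (minimum count of 10, minimum total count of 15) and fitted in R 4.3.3 with edgeR 4.0.16, by TMM and the quasi-likelihood test over all 8 libraries with 1 mean per group. Contrasts were T_CS minus T_RT, N_CS minus N_RT and their difference, with Benjamini-Hochberg adjustment over 28218 genes. The thresholds follow the study. The procedure was tested on simulated data in which few genes changed, with the spread of these technical libraries. That test did not cover the dependence on scaling or variation between plants. Alternatives were DESeq2 1.42.0 and other scalings, filters, tests, thresholds and libraries left out.

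At a group at 0 counts, a bound against 3 counts over the group is given, which is 0.0642 CPM in T_RT and 0.0800 CPM in T_CS. With 1 to 3 counts, the ratio of summed counts is given with an exact 95% binomial interval. Bounds and intervals cover counting error only. Genes and lists were chosen with earlier results of these data known. Named are the 65 genes that the study gives with an ID, by their list, those of opposite sign in T and N, and up to 2 unannotated IDs per direction with the largest change or the largest gain or loss of CPM. The table of gene names at hand matched 1 of the deposited IDs and belongs to another assembly, so lists by description, leaf markers and sequences were not used. Adjacent IDs within 1.25-fold of each other's counts are called near-equal.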

Additional observations from a re-analysis of the deposited data

Results flagged for a closer look

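The results listed here stood out because the cold response differed between T and N by the test of the difference itself, which passed for 9220 genes. Values are log2 fold changes in T minus those in N, positive where T responded more positively. The study chose these genes on some of the same libraries.

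Among the transcription factors, the difference was 7.13 for OsWRKY8, 2.95 for OsWRKY108, 3.58 for OsWRKY67, 2.29 for OsWRKY113, 1.17 for OsWRKY76 and -1.05 for OsWRKY62. It was 3.74 for OsERF27, 5.74 for ONAC59, 5.70 for bHLH148-like and -6.65 for OsHsfB2b. OsDREB1A was at 1.53, OsDREB1C at -3.57 and OsDREB1G at -0.91, so these named rice DREB1 genes did not share a sign.

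Of the hormone genes, OsJAZ1 differed by 3.87, OsJAZ2 by 3.83, OsJAZ5 by 3.29, OsJAZ8/9 by 3.05 and OsJAZ11 by 6.07. The lipoxygenase genes differed by 4.06 (OsLOX1a), 2.25 (OsLOX1b) and 1.37 (OsLOX2), OsOPR1 by 6.07, OsGH3-6 by 2.65 and OsGH3-8 by 2.56. All of these were more positive in T.

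Of the protective proteins, OsLEA22 differed by 8.10, OsLEA2 by 2.52, Dip1 by 2.40, Lip5 by 2.29, OsUSP36 by 3.22, dnaJ-b by 3.10 and OsERD7 by 2.49. The enzymes differed by 3.34 (T6PS-a), 2.55 (T6PS-b), 4.02 (OsGGPS7), 5.83 (OsTPS3), 3.59 (OsPAO4), 0.84 (ADH1), 0.97 (ADH2) and 5.26 (beta-1,3-glucanase).

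Of the signaling genes, OsRLCK253a differed by 5.01, GSO2-like LRR-RLK by 5.18, OsFLS2 by 3.77, LRR receptor kinase by 2.82, OsCAM1 by 1.64, CDPK by 4.45 and OsRBOH by 0.96. OsUSP36, ADH2 and OsRBOH did not pass in T and fell in N. The values of OsLEA22, OsWRKY8, bHLH148-like, beta-1,3-glucanase and OsHsfB2b rest on a cold group with 0 to 3 counts, so their size depends on the prior count of the fit.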

How the results depend on the processing

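Replicates are technical libraries of 1 pool per group, so no alternative shows how far plants vary. Of 69 genes followed, each over at most 13 alternatives and 6 of them over fewer, 58 kept their direction and their side of the FDR threshold. The side changed for 9, and 2 that did not pass the FDR changed sign. These numbers leave out the limits on the size of change that the calls also use. ADH2 went from 0.08 to -0.039 with total count scaling and ranged from -0.0785 to 0.255 with 1 library left out, and OsRBOH went from 0.05 to -0.069 with total count scaling. Genes called higher in T_CS versus T_RT numbered 519, or 1734 where a log2 fold change of 1 was enough, and 500 to 540 with 1 library left out. Genes called lower numbered 3093, or 2860 to 2973 with 1 library left out and 3766 with total count scaling. In N, 5558 genes rose, against 3685 with total count scaling and 3686 to 4592 with 1 library left out, the lowest without N_RT replicate 1. With DESeq2, 2845 genes responded more positively in N, against 4410. The replicate numbers did not pair the libraries, since the differences between replicates 1 and 2 correlated at -0.044 to 0.044 between groups over 18294 genes. With the replicate number as a block, 7318 genes rose, 7329 fell, 509 were called higher and 3068 called lower in T_CS versus T_RT. OsGH3-8 was the gene among those followed that no longer passed the FDR under the block. At under 1 CPM, a median SE of 0.58 limits what could be detected.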

Other observations

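The deposited tables name 112 gene IDs of the chloroplast and mitochondrial genomes, and none of those tested fell in T after the cold. The libraries were selected for poly(A), which organelle transcripts carry rarely, and 57 of the 112 IDs had 0 counts in all 4 T libraries. Of 30 that could be tested, 13 rose and 17 did not pass, where 26.2% of all tested genes rose and 26.2% fell. Their median log2 fold change was 1.08 and the lowest was 0.25, against a median of -0.01 over all tested genes. Some of the 30, such as nad6 with 0 counts in every room-temperature library, passed the filter on low counts through the cold libraries alone. Such IDs could not fall, so the absence of falls and the median depend partly on the filter. The abundant IDs rps3, rpoA and psaC moved less than the median, with log2 fold changes of 0.47, 0.48 and 0.78. Together the organelle IDs held 0.0219% and 0.0215% of the counts in T_RT and 0.0295% and 0.0302% in T_CS.

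Among chloroplast genes, psaC, for an iron-sulfur subunit of photosystem I, had 24.1 and 23.0 CPM in T_RT and 36.0 and 45.0 CPM in T_CS (0.78 ± 0.081, FDR 2.84e-13). The gene rpoA, for a subunit of the plastid RNA polymerase, had 24.5 and 23.0 CPM in T_RT and 34.8 and 31.4 CPM in T_CS (0.48 ± 0.081, FDR 4.92e-07). For psbB, a core antenna protein of photosystem II, the values were 3.63 and 3.56 CPM in T_RT and 5.68 and 5.79 CPM in T_CS (0.67 ± 0.18, FDR 0.000859). Both T_CS libraries lay above both T_RT libraries for these 3, as for 38.6% of all tested genes. Of the mitochondrial genes, cob, for cytochrome b, had 0.499 and 0.364 CPM in T_RT and 4.11 and 2.92 CPM in T_CS (3.03 ± 0.35, FDR 1.04e-11), and nad4L, for a subunit of complex I, had 0.0906 and 0.0810 CPM in T_RT and 1.22 and 2.31 CPM in T_CS (4.26 ± 0.61, FDR 7.26e-09). Another complex I gene, nad6, had 0 and 0 counts in T_RT and 17 and 14 counts in T_CS, at least 12.9-fold higher in the cold. In N, 18 of the 30 rose (19.7% of all tested genes did), the median log2 fold change was 1.75, and 11 rose in both genotypes. The limit set by the filter holds for these values too. The difference between the responses passed for 2 of the 30, with rps1 more positive in T (17.0% of all tested genes were) and psbB more positive in N (15.6% were, log2 fold change of 0.67 in T and 2.17 in N).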
